A study of Mus musculus with 10 samples.

Results

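Endothelial and angiogenesis genes were followed in uteri collected at gestation day (GD) 3.5, just before implantation. The group holds 35 of the 45706 genes listed, chosen by gene symbol through their Ensembl identifiers, and all 35 were among the 25146 genes tested. Each gene belongs to 1 of 6 roles, which are pan-endothelial genes (12 genes), endothelial transcription factors (4), angiogenic receptors (4), angiogenic ligands (7), lymphatic genes (3) and leukocyte adhesion genes (5). RNA came from the uteri of 5 adult control mice with the genotype *Arid1a* f/f and 5 adult mice with the genotype *Ltf* iCre/+ *Arid1a* f/f, called mutants here. Both genotypes carry the floxed *Arid1a* alleles, on a mixed strain background, and the females were mated with wildtype males. In the mutants, Cre recombinase made from the lactoferrin (*Ltf*) locus deletes *Arid1a*, a subunit of the SWI/SNF chromatin remodeler, in the endometrial epithelium, and the same Cre has been reported in neutrophils and other myeloid cells. The controls have no Cre, so the *Ltf* iCre allele and the loss of *Arid1a* cannot be told apart. Whole uterus was sequenced, so vessels, epithelium, stroma, muscle and blood cells share each library.

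Blood vessels are lined by endothelial cells, which are held together by junction proteins such as VE-cadherin and claudin 5 and kept in their identity by transcription factors of the ETS and SOX families. They respond to ligands made by neighbouring cells, of which VEGF-A acts on the receptor KDR and the angiopoietins act on the receptor TEK. In inflammation the same cells present selectins, ICAM1 and VCAM1, which slow and hold leukocytes. In the uterus of early pregnancy, vessels become leaky and grow where an embryo implants.

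Libraries held 65351817 to 72702411 counts in controls and 59296537 to 67990486 in mutants, and the lowest count of any of the 35 genes in a library was 14. Levels are CPM (counts per 10⁶ counts of the library, with TMM-scaled sizes), and the values of 5 uteri are always listed from replicate 1 to 5. Changes are log2 fold changes of mutants over controls from edgeR's quasi-likelihood test, and a gene was called when its Benjamini-Hochberg adjusted p over all tested genes was under 0.05. The median log2 fold change of all tested genes was 0.03. For single genes, log2 CPM was also compared by exact permutation of the genotypes (two-sided), whose smallest possible p with 5 uteri against 5 is 0.00794. *Arid1a* itself, counted over the whole gene and in all cells of the uterus, had 213 ± 22.9 CPM in controls and 185 ± 15.9 CPM in mutants (SD, n = 5 each) and was not called (log2 fold change -0.20, adjusted p = 0.201), while *Ltf* was 4.75 ± 3.92 CPM in controls and 714 ± 1194 CPM in mutants (log2 fold change 7.23, adjusted p = 0.00920).

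Of the 35 genes, 16 fell in mutant uteri and 0 rose (at an unadjusted p under 0.05, 20 were lower and 0 higher, and DESeq2 called 17 lower and 0 higher). The 16 are 45.7% of the group, while 4.51% of all tested genes were called lower, 5.19% higher and 9.7% in either direction. With DESeq2, of the 23017 genes given an adjusted p, 8.49% were called lower and 9.16% higher. These shares were not matched for level. Tested genes averaged 1 or more counts per library, whereas each of the 35 had at least 14 in every library. The falls of the 16 lay between -1.26 and -0.64 on the log2 scale, which leaves 0.417 to 0.643 of the control level. In 12 of the 35 genes every mutant was below every control, as for 5.16% of all tested genes (5.53% had every mutant above, and 0 of the 35), and these are the same 12 genes that were called in each of the 10 fits that left out 1 uterus. The median log2 fold change of the group was -0.65. The 35 genes were chosen with earlier results of these data known, so the shares above are a description. Summed over the 35 genes, the levels were 2145, 2083, 2312, 1827 and 1668 CPM in controls and 1244, 1359, 1225, 1129 and 1191 CPM in mutants, without overlap. These are bulk libraries, so fewer endothelial cells and less of these RNAs per cell cannot be told apart.

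**Figure D1:**
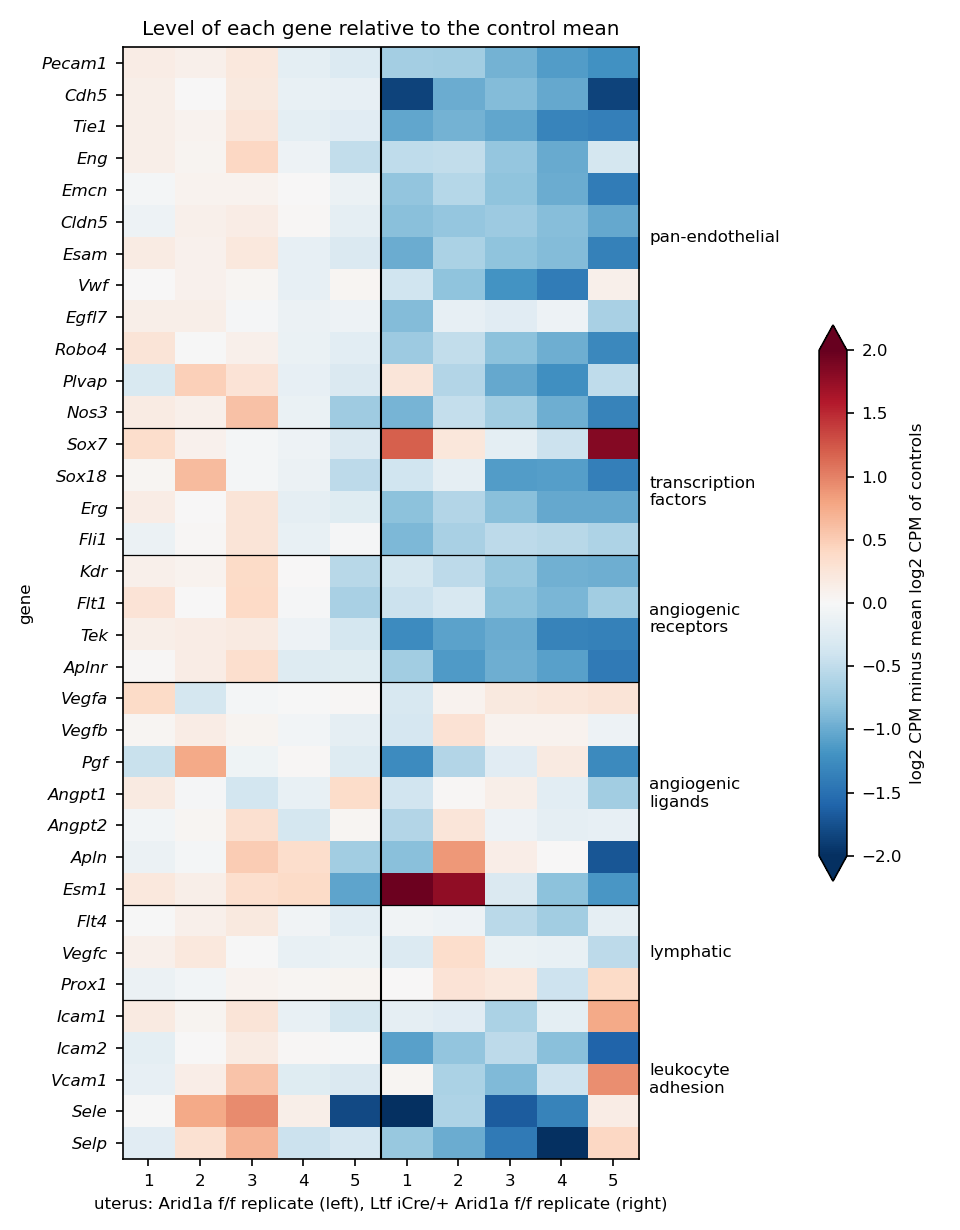
Level of each of the 35 genes in each uterus, as log2 CPM minus the mean log2 CPM of the 5 controls (color scale, cut at -2 and 2), with *Arid1a* f/f replicates 1 to 5 on the left of the vertical line, *Ltf* iCre/+ *Arid1a* f/f replicates 1 to 5 on the right and horizontal lines between the 6 roles. The pan-endothelial genes and angiogenic receptors are blue in most mutants, whereas the angiogenic ligands and lymphatic genes hold both colors.

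The pan-endothelial genes were lower together. All 12 had a negative log2 fold change, 9 fell, and 7 did not overlap between genotypes, with a median of -0.87. Their summed level was 1225, 1205, 1328, 1036 and 968 CPM in controls and 621, 700.4, 633, 568 and 541 CPM in mutants. *Cdh5* (ENSMUSG00000031871, chromosome 8, 104101625 to 104144511 of GRCm38) encodes VE-cadherin, the adhesion protein of endothelial junctions, and was the most abundant of the 35 genes per length in controls, at 68.2 CPM per kilobase of exon against 28.5 in mutants. Its levels were 309.9, 286, 326, 257 and 254 CPM in controls and 79.3, 143, 156, 141 and 79.3 CPM in mutants. The mutants lay in 2 levels, with replicates 1 and 5 below the other 3, and none reached the lowest control. The log2 fold change of *Cdh5* was -1.26 (standard error 0.199, edgeR adjusted p = 0.00421, exact permutation p = 0.00794), and it lay between -1.38 and -1.14 with each uterus left out in turn.

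*Pecam1* (ENSMUSG00000020717, chromosome 11, 106654217 to 106750628) encodes CD31, a surface protein of endothelial cells that platelets and some leukocytes also carry. It stood at 246, 236, 258, 194 and 183 CPM in controls and 139, 136, 115, 102 and 95.7 CPM in mutants and its highest mutant was well below its lowest control. *Tie1* (ENSMUSG00000033191, chromosome 4, 118471191 to 118490061), an orphan receptor kinase that works with TEK, had 97.4, 94.2, 106, 77.98 and 77.1 CPM in controls and 43.5, 46.8, 43.7, 35.8 and 34.8 CPM in mutants. The log2 fold change was -0.93 for *Pecam1* (standard error 0.13, edgeR adjusted p = 0.00273) and -1.15 for *Tie1* (standard error 0.12, edgeR adjusted p = 0.0006303). For both genes the genotypes did not overlap (exact permutation p = 0.00794 for each).

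Genes of the junction and the surface coat behaved alike. *Cldn5* (ENSMUSG00000041378, chromosome 16, 18776847 to 18778262), a tight junction protein, was 21.8, 25.1, 25.9, 23.9 and 20.7 CPM in controls and 13.1, 13.8, 14.1, 12.9 and 11.6 CPM in mutants, and its fold change had the smallest standard error of the 35 genes (0.100). *Esam* (ENSMUSG00000001946, chromosome 9, 37528078 to 37538319), an adhesion molecule of endothelial junctions, was 107, 101, 111, 85.7 and 78.6 CPM in controls and 48.1, 62.00, 55.00, 52.4 and 37.4 CPM in mutants. *Emcn* (ENSMUSG00000054690, chromosome 3, 137341067 to 137432185), a sialomucin of capillaries and veins, was 78.4, 84.6, 84.8, 80.4 and 74.1 CPM in controls and 46.5, 53.9, 45.8, 40.4 and 30.4 CPM in mutants. Every mutant was below every control in each of these 3 genes, and mutant replicate 5 was the lowest in each. Their log2 fold changes were -0.84, -0.92 and -0.89, with edgeR adjusted p-values of 0.00123, 0.00328 and 0.00273. *Robo4* (ENSMUSG00000032125, chromosome 9, 37401897 to 37415115), an endothelial guidance receptor that steadies vessels, had 45.5, 38.01, 40.8, 34.5 and 32.7 CPM in controls and 22.97, 26.9, 21.6, 19.2 and 15.6 CPM in mutants, again without overlap (log2 fold change -0.85, edgeR adjusted p = 0.00603).

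*Nos3* and *Eng* also fell, but their genotypes overlapped. *Nos3*, the endothelial nitric oxide synthase, had 29.4, 27.9, 39.03, 23.8 and 15.9 CPM in controls and 13.7, 18.7, 16.1, 13.3 and 10.4 CPM in mutants (log2 fold change -0.91, edgeR adjusted p = 0.0266). Control replicate 5, at the low end, lay within the range of the mutants, and the call was lost without control replicates 1, 2 or 3 or mutant replicate 4 (adjusted p from 0.0512 to 0.0626). *Eng*, the TGF-beta coreceptor endoglin, had 149, 142, 183, 128 and 97.5 CPM in controls and 96.6, 97.7, 80.3, 68.4 and 107 CPM in mutants (log2 fold change -0.64, edgeR adjusted p = 0.0347). Its call was lost without control replicates 1, 2, 3 or 4 or mutant replicates 3 or 4 (adjusted p from 0.0587 to 0.0750). *Atg9b*, whose exons overlap those of *Nos3* on the other strand, had 0.857 CPM in controls and 5.16 CPM in mutants (log2 fold change 2.59, adjusted p = 0.0351), and whether reads were counted by strand is not given in the sources used here. *Fpgs* and *Agpat2*, which overlap *Eng* and *Egfl7* in the same way, stood at 20.4 and 18.3 CPM in controls and were not called.

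*Vwf*, *Egfl7* and *Plvap* were the pan-endothelial genes that were not called. *Vwf*, the von Willebrand factor of endothelium and platelets, stood at 53.3, 56.3, 54.6, 47.4 and 54.7 CPM in controls and 40.4, 30.5, 23.2, 20.2 and 57.2 CPM in mutants (log2 fold change -0.63, 95% interval -1.16 to -0.11, adjusted p = 0.118). Mutant replicate 5 was above every control, and the other 4 mutants were below every control. Without mutant replicate 5 the log2 fold change of *Vwf* was -0.90 (adjusted p = 0.0116). Markers of platelets, which also store this protein, summed to 6.42 to 9.75 CPM in controls and 11.3 to 16.1 CPM in mutants, without overlap, but the markers differed in which mutants were high. *Itga2b*, the 1 of the 5 that rose (log2 fold change 0.66), had 8.73, 8.602, 7.52, 8.69 and 5.93 CPM in mutants, lowest in replicate 5, whereas *Pf4*, which was not called and is named after its values were seen, had 1.62, 3.14, 3.35, 3.25 and 8.98 CPM, highest in replicate 5. *Gp9* had 0 counts in libraries of both genotypes, and the part of platelets in the *Vwf* values was not tested. *Plvap*, which forms the diaphragms of fenestrated endothelium, had 36.01, 61.9, 53.8, 39.7 and 36.4 CPM in controls and 52.7, 29.6, 21.9, 19.04 and 31.4 CPM in mutants (log2 fold change -0.56, adjusted p = 0.205). Here mutant replicate 1 stood within the controls, the other 4 mutants were below every control, and without replicate 1 the log2 fold change was -0.84 (adjusted p = 0.0326). *Egfl7*, a secreted protein of sprouting vessels whose gene also holds the microRNA *Mir126a*, had 50.8, 50.8, 45.9, 42.8 and 43.5 CPM in controls and 25.7, 41.5, 39.9, 43.5 and 29.7 CPM in mutants (log2 fold change -0.37, 95% interval -0.69 to -0.06, adjusted p = 0.122). As with *Cdh5*, mutant replicates 1 and 5 were the lowest.

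**Figure D2:**
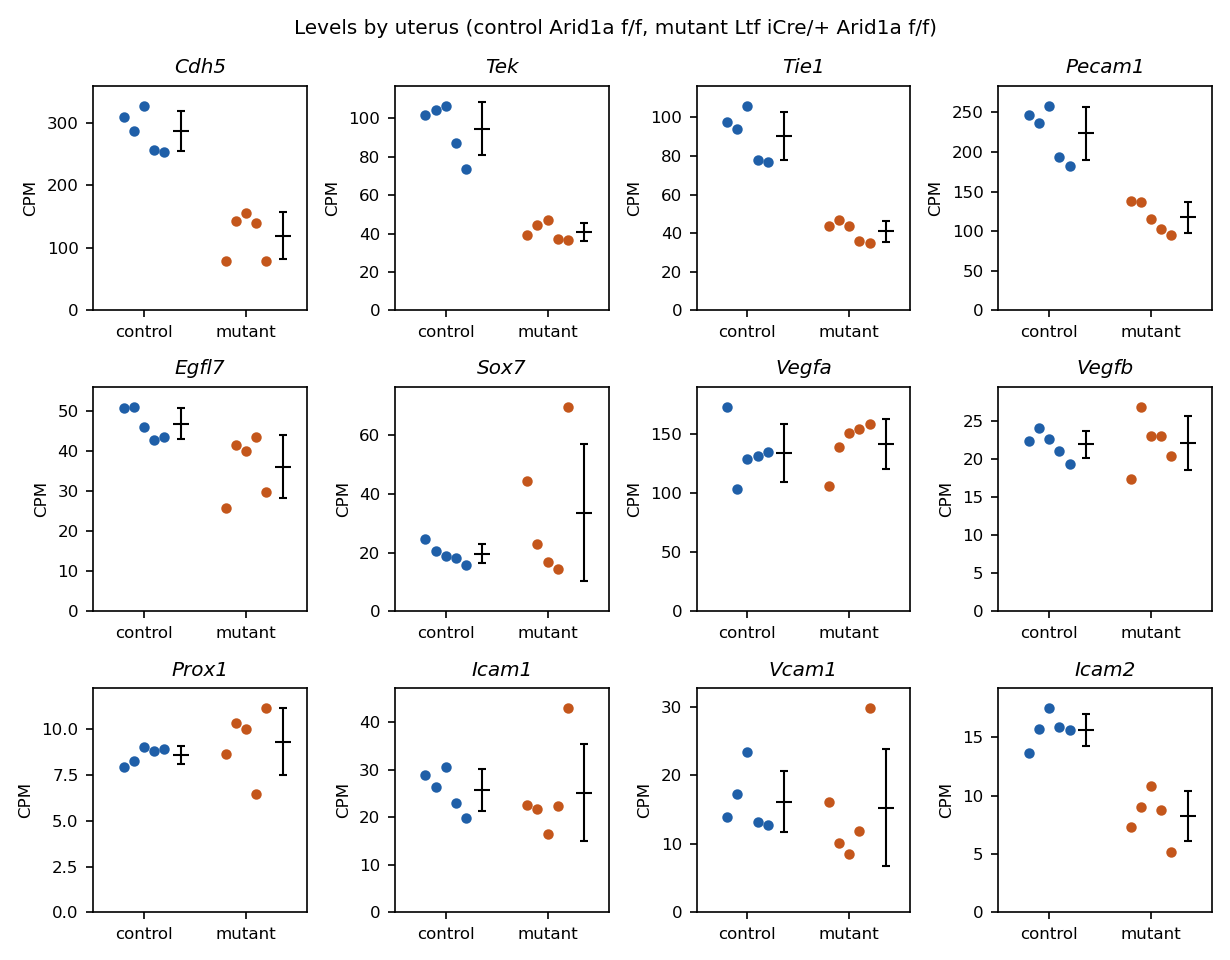
Levels of 12 of the genes in CPM (vertical axes, from 0) in each uterus, with 5 *Arid1a* f/f controls in blue and 5 *Ltf* iCre/+ *Arid1a* f/f mutants in orange, in order of replicate number, and the mean ± SD of each genotype as a black bar. The genotypes stand apart for *Cdh5*, *Tek*, *Tie1*, *Pecam1* and *Icam2* and overlap for the other 7 genes. Mutant replicate 5 is the highest uterus for *Sox7*, *Prox1*, *Icam1* and *Vcam1*.

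Of the 4 endothelial transcription factors, *Erg* and *Fli1* fell, and *Sox18* and *Sox7* were not called. *Erg* (ENSMUSG00000040732, chromosome 16, 95359169 to 95586593) and *Fli1* (ENSMUSG00000016087, chromosome 9, 32422204 to 32542861) encode ETS factors that maintain endothelial gene expression, and *Fli1* is also made by blood cells. *Erg* was at 38.2, 34.7, 41.1, 30.2 and 29.2 CPM in controls and 19.6, 22.8, 19.2, 16.99 and 16.97 CPM in mutants (log2 fold change -0.86, standard error 0.12, edgeR adjusted p = 0.002596). *Fli1* was at 35.4, 39.1, 45.7, 34.6 and 37.8 CPM in controls and 20.7, 24.4, 26.7, 26.2 and 24.9 CPM in mutants (log2 fold change -0.65, standard error 0.103, edgeR adjusted p = 0.00429). Neither gene overlapped between genotypes. *Sox18* and *Sox7* are SOX factors of the F group that act in vessel formation. *Sox18* had 34.5, 52.1, 32.7, 30.8 and 23.3 CPM in controls and 25.3, 29.6, 15.4, 15.6 and 13.02 CPM in mutants (log2 fold change -0.81, adjusted p = 0.0722, and 0.0235 with DESeq2), with mutant replicates 3, 4 and 5 below every control. *Sox7* had 24.6, 20.6, 18.97, 18.02 and 15.8 CPM in controls and 44.4, 22.8, 16.9, 14.5 and 69.3 CPM in mutants (log2 fold change 0.78, 95% interval -0.06 to 1.61, adjusted p = 0.228). Its mutants split, since replicates 1 and 5 were above every control and the other 3 were within or below the range of the controls. Without mutant replicate 5 the log2 fold change of *Sox7* was 0.33. The same 2 mutants held the highest summed levels of the 8 epithelial markers, 2131, 1172, 1020.2, 1261 and 1553 CPM over the 5 mutants, and the part of epithelium in the *Sox7* values was not tested.

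Since genes of ETS factors and of endothelial proteins were lower together, the promoters of 4 members that fell are shown with the ETS-type motif CAGGAAG, which was searched on both strands. Each sequence is the 200 bases before the RefSeq start (GRCm38.p6), read on the strand of the gene, and capitals mark the motif, which reads CTTCCTG where it lies on the other strand.
*Emcn*, chr3:137340878-137341077, plus strand: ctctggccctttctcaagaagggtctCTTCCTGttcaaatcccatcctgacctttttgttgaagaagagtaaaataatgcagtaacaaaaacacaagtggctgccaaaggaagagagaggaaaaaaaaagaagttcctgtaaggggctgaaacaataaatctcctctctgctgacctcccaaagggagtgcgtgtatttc
*Erg*, chr16:95586594-95586793, minus strand: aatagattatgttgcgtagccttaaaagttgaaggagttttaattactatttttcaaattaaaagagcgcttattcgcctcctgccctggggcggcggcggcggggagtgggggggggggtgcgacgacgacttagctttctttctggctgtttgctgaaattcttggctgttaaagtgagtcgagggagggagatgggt
*Tek*, chr4:94739089-94739288, plus strand: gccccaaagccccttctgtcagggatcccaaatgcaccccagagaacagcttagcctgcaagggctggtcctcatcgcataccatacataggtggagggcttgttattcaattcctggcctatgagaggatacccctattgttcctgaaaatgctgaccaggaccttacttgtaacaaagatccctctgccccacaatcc
*Cldn5*, chr16:18776647-18776846, plus strand: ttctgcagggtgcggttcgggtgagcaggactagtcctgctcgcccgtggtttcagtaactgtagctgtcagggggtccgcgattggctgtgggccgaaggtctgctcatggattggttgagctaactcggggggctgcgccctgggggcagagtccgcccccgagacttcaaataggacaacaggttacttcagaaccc
Of these 4 stretches, the one of *Emcn* held the motif once, 174 bases before the start, and the other 3 did not hold these letters. The promoter table of RefSeq had entries for 21 of the 35 genes. Within 250 bases before a start, CAGGAAG lay in 7 of the 28 promoters of these genes (25%) and in 10.8% of the 32851 promoters of all genes. Counting a gene with the motif at any of its starts, it was in 3 of the 9 genes that fell (*Emcn*, *Robo4* and a start of *Erg* inside the gene) and in 3 of the 12 that were not called (*Apln*, *Egfl7* and *Sele*). The 10.8% counts promoters and not genes, so it is not a like share for these counts per gene. A match of letters is a description and does not show binding.

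All 4 angiogenic receptors fell, with a median log2 fold change of -0.89. Their summed level was 438, 433, 507, 378 and 300.3 CPM in controls and 260.3, 242, 219, 193 and 188 CPM in mutants. *Tek* (ENSMUSG00000006386, chromosome 4, 94739289 to 94874976), the receptor of the angiopoietins, had 102, 104, 106, 87.00 and 73.7 CPM in controls and 39.2, 44.4, 47.02, 37.01 and 36.9 CPM in mutants. Its log2 fold change of -1.21 (standard error 0.12) had the lowest adjusted p of the 35 genes, 0.000441 in edgeR's quasi-likelihood test. *Aplnr* (ENSMUSG00000044338, chromosome 2, 85136225 to 85139923), the receptor of apelin, had 115, 126, 143, 94.7 and 95.4 CPM in controls and 69.6, 51.8, 57.4, 53.2 and 42.7 CPM in mutants (log2 fold change -1.06, standard error 0.15, edgeR adjusted p = 0.00221). Both genes were without overlap between genotypes.

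*Kdr*, the main signaling receptor of VEGF-A, had 132, 129.6, 161, 124 and 84.1 CPM in controls and 96.6, 86.2, 72.9, 63.7 and 62.7 CPM in mutants (log2 fold change -0.72, standard error 0.17, edgeR adjusted p = 0.0235). *Flt1*, a VEGF receptor that also binds the ligand without passing on a strong signal, had 89.04, 73.8, 96.99, 72.8 and 46.99 CPM in controls and 54.9, 59.4, 41.8, 39.01 and 45.8 CPM in mutants (log2 fold change -0.66, standard error 0.18, edgeR adjusted p = 0.04504). For both, control replicate 5 lay among the mutants while the other 4 controls were above every mutant. The call of *Kdr* was lost without control replicates 2, 3 or 4 or mutant replicate 4 (highest adjusted p = 0.0551), and that of *Flt1* in 8 of the 10 fits that left out 1 uterus, all except those without control replicate 5 or mutant replicate 2 (adjusted p from 0.0515 to 0.0997). In the 4 fits without control replicates 2, 3 or 4 or mutant replicate 4, 2 of the 4 receptors were called. Within a uterus, the log2 ratio of *Flt1* to *Kdr* was -0.74 ± 0.105 in controls and -0.66 ± 0.16 in mutants (SD, n = 5 each), a difference of 0.08 (exact permutation p = 0.349, adjusted p = 0.536 over 9 ratios).

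None of the 7 angiogenic ligands was called by edgeR or DESeq2, and 0 had an unadjusted p under 0.05. Of their log2 fold changes, 4 were negative and 3 positive, with a median of -0.12. *Vegfa* (ENSMUSG00000023951, chromosome 17, 46016993 to 46032369), the chief growth factor of vessels, was the most abundant ligand per length, at 31.4 CPM per kilobase in controls and 33.1 in mutants. It had 173, 104, 129, 131 and 135 CPM in controls and 106, 139.5, 151, 155 and 158 CPM in mutants, and the mutants lay within the range of the controls. Its log2 fold change was 0.08 with a 95% interval of -0.23 to 0.39 (adjusted p = 0.779). *Vegfb*, a relative of VEGF-A that binds FLT1, had 22.4, 24.1, 22.7, 21.1 and 19.4 CPM in controls and 17.3, 26.8, 23.1, 23.1 and 20.4 CPM in mutants (log2 fold change 0.01, 95% interval -0.25 to 0.28). For these 2 ligands the interval does not reach the falls of the 16 called genes. The same holds for *Angpt1*, *Angpt2* and *Esm1*, but not for *Pgf* and *Apln*.

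The other ligands varied more between uteri. *Pgf*, placental growth factor, another ligand of FLT1, had 4.48, 10.3, 5.75, 6.16 and 5.05 CPM in controls and 2.54, 4.06, 5.22, 6.88 and 2.52 CPM in mutants (log2 fold change -0.58, 95% interval -1.28 to 0.12, adjusted p = 0.283). *Apln*, the ligand of the apelin receptor, had 9.26, 9.799, 14.3, 12.8 and 6.17 CPM in controls and 5.63, 18.3, 11.02, 10.2 and 3.08 CPM in mutants (log2 fold change -0.12, 95% interval -0.996 to 0.76). In both genes mutant replicates 1 and 5 were the lowest of the mutants, as for *Cdh5* and *Egfl7*. *Esm1*, a secreted proteoglycan of endothelial tip cells, was low, at 2.25, 2.105, 2.46, 2.54 and 0.933 CPM in controls and 7.54, 6.66, 1.59, 1.104 and 0.868 CPM in mutants (log2 fold change 0.79, 95% interval -0.51 to 2.09). Mutant replicates 1 and 2 stood above every control, the other 3 mutants did not, and control replicate 5 was far below the other controls.

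Of the angiopoietins, *Angpt1* activates TEK and *Angpt2* mostly opposes it. *Angpt1* had 14.8 ± 2.92 CPM in controls and 12.7 ± 2.75 CPM in mutants, and *Angpt2* had 10.2 ± 1.69 CPM in controls and 9.18 ± 1.83 CPM in mutants (SD, n = 5 each). Their log2 fold changes were -0.22 (95% interval -0.62 to 0.17) and -0.15 (95% interval -0.52 to 0.22). The log2 ratio of *Angpt2* to *Angpt1* within a uterus differed by 0.07 between genotypes (exact permutation p = 0.786, adjusted p = 0.913 over 9 ratios), and the ratios of *Pgf* to *Vegfa* and of *Vegfc* to *Vegfa* by -0.71 and -0.23 (adjusted p = 0.333 and 0.536, exact permutation).

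**Figure D3:**
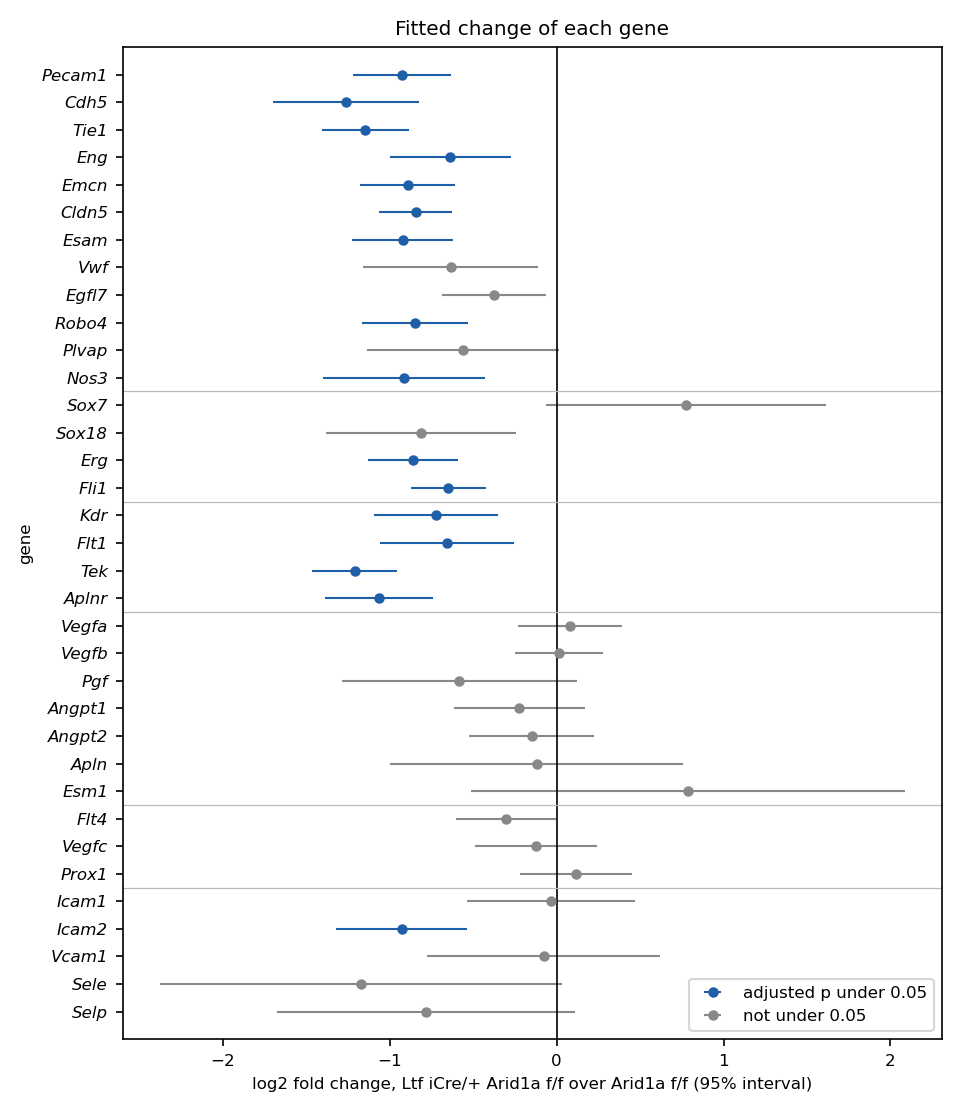
Log2 fold change of mutants over controls (horizontal axis) for each of the 35 genes, as points with 95% intervals from edgeR's fit of 5 against 5 uteri, with blue for an adjusted p under 0.05 and gray for the rest. The 16 blue points lie between -1.26 and -0.64, and the points of the angiogenic ligands and lymphatic genes are all gray.

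Of the 3 lymphatic genes, 0 were called by edgeR or DESeq2, and 1 had an unadjusted p under 0.05. *Prox1*, the transcription factor that defines lymphatic endothelium, had 7.94, 8.28, 9.04, 8.79 and 8.93 CPM in controls and 8.62, 10.4, 9.99, 6.48 and 11.1 CPM in mutants (log2 fold change 0.12, 95% interval -0.22 to 0.45). *Flt4*, the receptor VEGFR3, had 29.1, 31.2, 33.2, 27.7 and 25.1 CPM in controls and 27.7, 27.2, 20.1, 17.9 and 25.8 CPM in mutants (log2 fold change -0.301, 95% interval -0.600 to -0.001, adjusted p = 0.189). *Vegfc*, its ligand, had 8.798 ± 0.941 CPM in controls and 8.07 ± 1.87 CPM in mutants (SD, n = 5 each, log2 fold change -0.13, 95% interval -0.49 to 0.24). The genotypes overlapped for all 3. In a list of 8 other lymphatic genes, 1 fell and 1 rose, with a median log2 fold change of -0.16. The one that fell was *Vegfd*, a further ligand of VEGFR3, from 38.7 ± 14.2 to 14.3 ± 3.85 CPM (SD, n = 5 each, adjusted p = 0.00961), and the one that rose was *Pdpn*, which other cells of the uterus also make, from 14.4 ± 3.38 to 22.8 ± 4.79 CPM (SD, n = 5 each, adjusted p = 0.0409). At an unadjusted p under 0.05, and also with DESeq2, 2 of the 8 were lower and 1 higher. *Nrp2*, a coreceptor of VEGF-C, went from 84.9 ± 15.6 to 59.3 ± 11.4 CPM (SD, n = 5 each, log2 fold change -0.52, edgeR adjusted p = 0.05199, DESeq2 adjusted p = 0.0223). The other 5 genes, *Lyve1*, *Reln*, *Mmrn1*, *Ccl21a* and *Sema3d*, had log2 fold changes of -0.26, -0.38, -0.06, 0.01 and 0.05 and were not called.

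Levels were also set against pan-endothelial genes within each uterus. The measure was the log2 ratio to the geometric mean of *Pecam1*, *Cdh5* and *Tie1*, which does not depend on the library size. Pan-endothelial genes are not particular to blood vessels, so the ratio does not compare lymphatic with blood vessels. Since these 3 reference genes fell, a gene with an even level has a higher ratio in mutants by construction. The 3 had log2 fold changes of -0.93, -1.26 and -1.15, each a larger fall than the pan-endothelial median of -0.87. So even a typical pan-endothelial gene gains in this ratio. *Vegfa*, *Flt4* and *Prox1* were chosen for this after their values were seen, so their ratios are a description and carry no test. The log2 ratio of *Prox1* was -4.62, -4.48, -4.52, -4.16 and -4.097 in controls and -3.18, -3.23, -3.21, -3.63 and -2.52 in mutants. That of *Flt4* was -2.74, -2.57, -2.64, -2.51 and -2.61 in controls and -1.497, -1.83, -2.199, -2.16 and -1.31 in mutants. That of *Vegfa* was -0.18, -0.83, -0.69, -0.26 and -0.18 in controls and 0.44, 0.52, 0.71, 0.95 and 1.305 in mutants. Each of the 3 ratios was higher in 5 of 5 mutants than in any control, by 1.22, 0.81 and 1.21 on the log2 scale.

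Of the 5 leukocyte adhesion genes, *Icam2* fell, and *Icam1*, *Vcam1*, *Sele* and *Selp* were not called. *Icam2* (ENSMUSG00000001029, chromosome 11, 106377656 to 106388075), which endothelium carries without stimulation, had 13.6, 15.7, 17.5, 15.8 and 15.6 CPM in controls and 7.31, 9.06, 10.9, 8.76 and 5.15 CPM in mutants, without overlap (log2 fold change -0.93, standard error 0.18, edgeR adjusted p = 0.0103). *Icam1*, a ligand of leukocyte integrins that many cell types make in inflammation, had 28.9, 26.3, 30.5, 23.1 and 19.9 CPM in controls and 22.5, 21.7, 16.4, 22.3 and 42.9 CPM in mutants. *Vcam1*, the ligand of integrin alpha 4, had 13.96, 17.2, 23.4, 13.2 and 12.8 CPM in controls and 16.1, 10.2, 8.502, 11.8 and 29.7 CPM in mutants. In both genes mutant replicate 5 held the highest of the 10 values, and the other mutants lay within or below the controls. Their log2 fold changes were -0.03 (95% interval -0.54 to 0.47) and -0.08 (95% interval -0.78 to 0.62), and without mutant replicate 5 they were -0.31 and -0.47 (adjusted p = 0.205 and 0.221).

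The selectins catch leukocytes from the flow. *Selp*, P-selectin of endothelium and platelets, had 7.93, 11.4, 14.8, 6.902 and 7.36 CPM in controls and 5.46, 4.63, 3.48, 2.21 and 12.3 CPM in mutants (log2 fold change -0.78, 95% interval -1.68 to 0.11, adjusted p = 0.254). Mutant replicates 1 to 4 were below every control and replicate 5 was among the highest controls, and without replicate 5 the log2 fold change was -1.29 (adjusted p = 0.0259). *Sele*, E-selectin, was the least abundant of the 35 genes per length, at 1.34, 2.27, 2.601, 1.46 and 0.388 CPM in controls and 0.2195, 0.879, 0.425, 0.537 and 1.505 CPM in mutants (log2 fold change -1.17, 95% interval -2.38 to 0.03, adjusted p = 0.203), and the genotypes overlapped.

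In relation to *Pecam1*, *Cdh5* and *Tie1* of the same uterus, *Icam1* stood at -2.75, -2.82, -2.76, -2.77 and -2.94 on the log2 scale in controls and at -1.796, -2.16, -2.49, -1.85 and -0.58 in mutants. All 5 mutants were above all 5 controls, by 1.03 in the mean, which follows the fall of the reference genes, since *Icam1* itself had a log2 fold change of -0.03. For *Vcam1* the difference was 0.94, and for *Icam2*, *Selp* and *Sele* it was 0.16, 0.17 and -0.07. These ratios to genes that fell are likewise a description without a test. On the leukocyte side, 2 of the 7 genes in a list of integrins and selectin ligands rose, with a median log2 fold change of 0.88. They were *Itgb2*, a subunit of the integrins that bind ICAM1, from 20.2 ± 2.796 to 41.2 ± 19.96 CPM, and *Selplg*, the ligand of P-selectin, from 13.6 ± 2.46 to 26.9 ± 9.801 CPM (SD, n = 5 each, adjusted p = 0.0404 and 0.0274). Neutrophil markers summed to 5.94, 20.2, 9.71, 15.1 and 23.1 CPM in controls and 15.7, 12.3, 12.98, 23.1 and 873 CPM in mutants, so that mutant replicate 5, the uterus with the highest *Icam1* and *Vcam1*, stood far above all others. Of these 7 markers 2 were called higher, and none was at 0 in a library. *Mmp8* had 0.1098, 0.135, 0.163, 0.247 and 17.2 CPM in mutants and *Ly6g* 1.71, 0.372, 0.163, 0.247 and 5.32 CPM, against 0.0546 ± 0.0302 and 0.108 ± 0.0547 CPM in controls (SD, n = 5), so that the fold of *Mmp8* (log2 5.99, edgeR adjusted p = 0.04397, no DESeq2 p) was carried by mutant replicate 5 and that of *Ly6g* (log2 3.82, edgeR adjusted p = 0.0294) mostly by replicates 5 and 1. The part of neutrophils in these values was not tested.

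**Figure D4:**
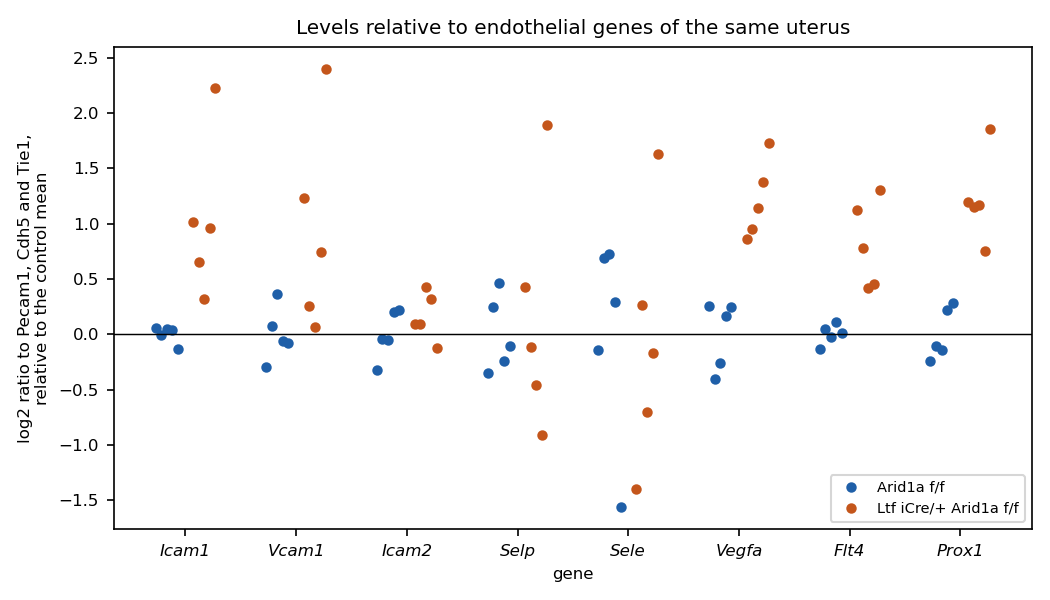
Log2 ratio of 8 genes to the geometric mean of *Pecam1*, *Cdh5* and *Tie1* in the same uterus, relative to the mean of the 5 controls (vertical axis), with *Arid1a* f/f in blue and *Ltf* iCre/+ *Arid1a* f/f in orange. All mutants lie above all controls for *Icam1*, *Vegfa*, *Flt4* and *Prox1*, and the genotypes overlap for *Vcam1*, *Icam2*, *Selp* and *Sele*.

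A further list of 26 endothelial genes outside the 35 was lower as well. This list, like the 35, was chosen with earlier results of these data known, so it is not independent support. Of these, 16 fell, 10 were not called, 14 did not overlap between genotypes, and the median log2 fold change was -0.78. The log2 fold changes were negative in 24 and positive in 2. The 2 were *Efnb2* (0.62, edgeR adjusted p = 0.0517, DESeq2 adjusted p = 0.0197) and *Dll4* (0.45, not called by either). DESeq2 called 18 lower and 1 higher, while edgeR called 0 higher (1 at an unadjusted p under 0.05). The largest fall was that of *Procr*, the endothelial protein C receptor, from 51.7 ± 20.1 to 11.4 ± 2.84 CPM (SD, n = 5 each, log2 fold change -2.18, adjusted p = 0.00162). *Tal1*, a transcription factor of blood and endothelium, fell from 10.9 ± 1.78 to 5.09 ± 0.756 CPM, *Mmrn2*, a matrix protein of endothelium, from 50.00 ± 10.4 to 23.5 ± 2.699 CPM and *Ptprb*, the phosphatase that restrains TEK, from 107 ± 23.2 to 52.6 ± 7.13 CPM (SD, n = 5 each, adjusted p = 0.00254, 0.001898 and 0.00262). Pericytes, which wrap small vessels, were covered by 7 genes, of which 3 fell, with a median of -0.501. *Rgs5* fell from 847 ± 108 to 345 ± 79.8 CPM, *Notch3* from 79.1 ± 16.3 to 43.5 ± 7.38 CPM and *Abcc9* from 88.1 ± 14.8 to 53.7 ± 8.76 CPM (SD, n = 5 each, adjusted p = 0.00162, 0.00683 and 0.0106). The summed level of the pericyte genes was 1249.8 ± 122 CPM in controls and 624 ± 78.1 CPM in mutants (SD, n = 5 each).

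Among 12 other angiogenic signals 2 fell, with a median log2 fold change of -0.29. They were *Cxcl12*, a chemokine that guides endothelial and blood cells, from 302 ± 20.5 to 187 ± 10.8 CPM, and *Vash1*, an inhibitor of angiogenesis made by endothelium, from 18.6 ± 3.74 to 11.2 ± 2.53 CPM (SD, n = 5 each, adjusted p = 0.000934 and 0.0291). Genes of the hypoxia response, of which *Vegfa* is one in many tissues, went both ways. Of 10, 2 rose and 1 fell, with a median of 0.16. Their log2 fold changes were positive in 8 and negative in 2. At an unadjusted p under 0.05, and also with DESeq2, 3 were higher and 2 lower. *Egln3*, an oxygen-sensing hydroxylase, had 4.78, 6.93, 4.42, 4.98 and 4.57 CPM in controls and 38.9, 8.399, 7.26, 10.9 and 77.5 CPM in mutants (adjusted p = 0.0295), and *Car9*, a carbonic anhydrase, rose from 0.667 ± 0.261 to 2.82 ± 1.29 CPM, while *Ndrg1* fell from 82.7 ± 10.5 to 45.2 ± 3.61 CPM (SD, n = 5 each, adjusted p = 0.00625 and 0.00102).

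**Figure D5:**
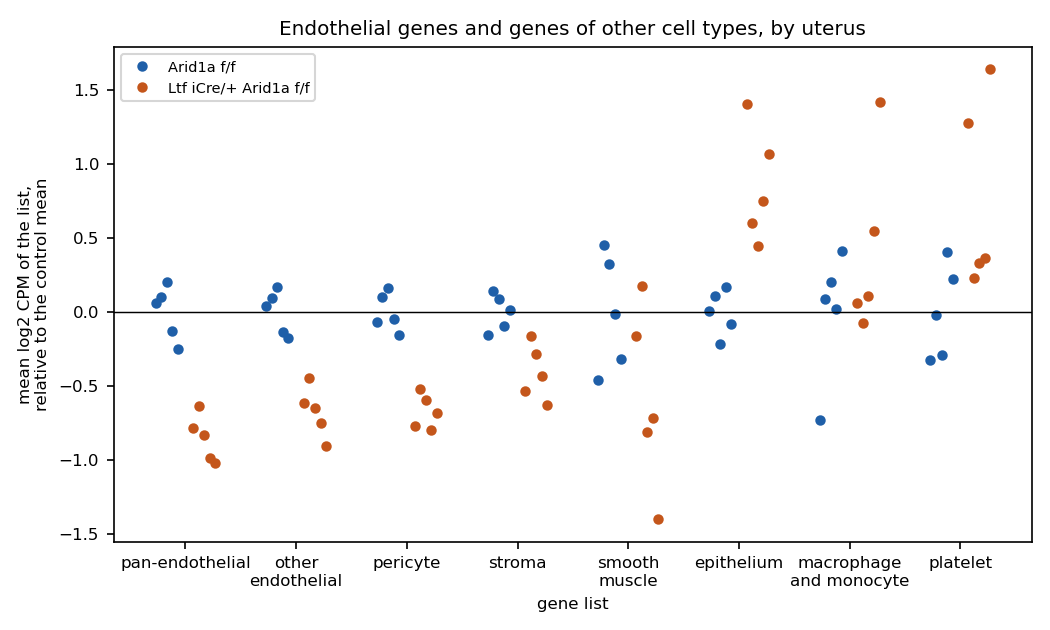
Mean log2 CPM of the genes in 8 lists, relative to the mean of the 5 controls (vertical axis), for each *Arid1a* f/f uterus (blue) and each *Ltf* iCre/+ *Arid1a* f/f uterus (orange). Mutants lie below all controls for the pan-endothelial genes, the other endothelial genes, the pericyte genes and the stroma and above them for the epithelium, and the genotypes overlap for the smooth muscle, the macrophage and monocyte and the platelet genes. The gap of the stroma is slight, at -0.159 for mutant replicate 2 and -0.156 for control replicate 1.

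Markers of the other cell types of the uterus were above 0 in every library, except for 1 platelet and 1 red cell gene, and several lists differed between genotypes along with the endothelial genes. Of 8 epithelial markers, 6 rose, with *Krt7*, *Epcam*, *Cldn7* and *Krt8* at log2 fold changes of 1.83, 1.19, 1.105 and 0.87 and with a summed level of 682 to 898 CPM in controls and 1020.2 to 2131 CPM in mutants. Of 8 stromal markers, 2 fell (*Vim* and *Dcn*, log2 fold changes -0.94 and -0.65), with a summed level of 11809 to 17096 CPM in controls and 9933 to 15411 CPM in mutants, which overlap, and a mean log2 CPM that was lower in every mutant than in any control. That gap was slight, with mutant replicate 2 at -0.159 and control replicate 1 at -0.156 relative to the control mean. For 5 smooth muscle markers (0 called, 4976 to 9235 CPM in controls and 2509 to 7186 CPM in mutants), 8 macrophage and monocyte markers (0 called, 168 to 344 and 272 to 628 CPM) and 5 red cell genes (0 called, 20.7 to 78.9 and 21.1 to 101 CPM) the ranges overlapped. At an unadjusted p under 0.05, 1 of the smooth muscle genes was lower, 3 of the macrophage and monocyte genes were higher and 0 of the red cell genes differed, and DESeq2 called 1, 2 and 0. In the lists of pericyte, epithelial, stromal, neutrophil and platelet genes 0 genes were called in the opposite direction by edgeR or DESeq2, or at an unadjusted p under 0.05, while 1 of the angiogenic signals was higher and 1 of the leukocyte partners lower at that unadjusted p, and DESeq2 called 1 angiogenic signal higher.

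The pan-endothelial genes were also set against these lists within each uterus, as the difference of mean log2 CPM, a comparison added after seeing the data and given without a test. Against the stroma they were lower in mutants by 0.44 on the log2 scale, with 4 of 5 mutants below every control. Against the pericyte genes they were lower by 0.18, with 4 of 5 mutants below every control, and against the smooth muscle by 0.27, with 2 of 5. Against the epithelium they were lower by 1.71, with 5 of 5 mutants below every control. Against the macrophage and monocyte genes they were lower by 1.26, with 4 of 5. The part of the cell makeup of the samples in the fall of endothelial genes was not tested further.

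The uteri of a genotype were not alike in these genes. Among controls, replicate 3 held the highest value for 23 of the 35 genes and replicate 5 the lowest for 22. Among mutants, replicate 5 held the lowest value for 18 genes and the highest for 9, and replicate 2 held the lowest for 0 and the highest for 12. Between 18 and 24 of the 35 genes in each mutant lay below every control. Control replicate 5 lay below all other controls for 22. The mutants were counted against every control, with replicate 5 among them, so these counts do not share a limit. The same counts over all tested genes were not made. Without mutant replicates 1 and 5, which had the highest *Ltf* and epithelial marker levels (a choice made after seeing the data), 17 of the 35 genes were called lower and 0 higher, 14 of them among the 16.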

How the data were processed

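Per the submitters' processing notes and the paper's methods, reads (50 bp, paired end) were trimmed (cutadapt 1.18, Trim Galore 0.6.4) and aligned to GRCm38 (STAR 2.7.3a). The authors deposited whole-number counts per Ensembl gene without normalization. The annotation release and strand setting are not given in the sources used here, so reads of overlapping genes may be lost or shared. Columns were matched to samples by title. The members, lists and tests were chosen with earlier results of these data known. Symbols, positions and exon lengths came from GENCODE M21 (GRCm38), which holds 45143 of the 45706 identifiers. Genes whose counts averaged 1 or more per library were tested in R 4.3.3 with edgeR 4.0.16 (TMM, quasi-likelihood test, a model of genotype alone, Benjamini-Hochberg adjustment), and with DESeq2 1.42.0 as an alternative. Standard errors and 95% intervals belong to the edgeR fit. Log2 CPM for ratios and permutation tests used a prior count of 0.5. Levels per length are CPM divided by exon length. The procedures were tested on simulated counts. Libraries of a genotype differed by at least 36.1 chi-square per gene, so none was a duplicate. The study used littermates for its comparisons where it could, so controls and mutants may share litters, but which uteri do is not given. The p-values set the genotype difference against the spread between these uteri and take the uteri as independent. All members were named, and of each other list the called genes with the largest changes, at most 4. The lymphatic genes that were not called, *Pf4*, *Gp9*, *Efnb2* and *Dll4* were named after their values were seen. The 5 ratios to *Pecam1*, *Cdh5* and *Tie1* were adjusted together with the other 4 but are printed without a p, because these reference genes fell. Alternatives covered size factors, the filter, the test, the replicate number and each uterus left out. Drawings used matplotlib 3.10.9.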

Additional observations from a re-analysis of the deposited data

Results flagged for a closer look

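*Esm1*, the tip cell proteoglycan, had 1 control uterus far from the others. Control replicate 5 stood at 0.933 CPM while the other controls were between 2.10 and 2.54 CPM, and the gap to the nearest control was 0.811 of the range on the log2 scale, above the limit of 0.71 for 5 samples. This was the only case among the 70 sets of 5 values (35 genes in 2 genotypes), where chance gives about 1 in 20. Without control replicate 5 *Esm1* was still not called.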

How the results depend on the processing

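Size factors (RLE, upper quartile) and filters (none, filterByExpr) each called the same 16 members. With DESeq2, 17 members were called, all 16 among them, of 4062 genes called in all, 1954 of them lower. With each uterus left out, 12 to 17 members were called, while the genes called in all ranged from 1204 to 2381 and those lower from 610 to 1085 (2438 and 1133 with all uteri). The fewest were called without control replicates 2, 3 or 4, at 1204, 1248 and 1414 in all. Of 560 values of single members under these alternatives and with the replicate number as a block, 511 kept their direction and side of the threshold. Members near 0 changed sign when 1 uterus was left out, and none of these was called: *Vegfa* ranged from -0.0079 to 0.18, *Vegfb* from -0.067 to 0.084, *Apln* from -0.49 to 0.11, *Icam1* from -0.31 to 0.088 and *Vcam1* from -0.47 to 0.088. So did the ratios of *Angpt2* to *Angpt1* (-0.043 to 0.24) and of *Sele* and *Selp* to *Pecam1*, *Cdh5* and *Tie1* (-0.50 to 0.26 and -0.26 to 0.43). Without mutant replicates 1 and 5 together, chosen after seeing the data, *Sox7* was at -0.12, *Apln* at 0.33 and *Vegfc* at 0.034. Same-numbered uteri did not deviate together (correlations from -0.19 to 0.23, and 0 of 5 uteri matched its own number best). No pairing by number was seen, but these correlations cannot exclude shared litters. With the replicate number as a block 15 members were called, without *Eng* and *Flt1* and with *Sox18*, and for the ratios the block cannot give a p below 0.0625. The cause of these shifts was not tested. Depth limits the low genes most, with 14 counts of *Sele* in the poorest library, and the counting error does not cover differences between mice.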
